A study of Mus musculus with 6 samples.

Results

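The genes described here encode factors that build ribosomes, the machines that make protein. Of 43 genes listed for this role, 41 were measured in mouse liver, out of 22180 genes in all. They were chosen by name, and each was represented by the probe set that named only that gene and had the highest mean over the arrays. Fbl and Tsr1 had no probe set of their own and are given no value. The RNA came from livers of 6 male mice of a Mutyh line crossed to C57BL/6 for at least 10 generations, with an array for each animal. The 3 MUTYH-null mice (Mutyh -/-), numbered 3003, 3007 and 3008, had developed liver tumors, and the tissue taken was non-tumorous according to the methods. The 3 wild-type mice (Mutyh +/+), numbered 1025, 1027 and 1001, had no liver tumors. All 6 had been fed the high-fat high-carbohydrate (HFHC) + high iron diet for 9 months from 8 weeks of age. Every MUTYH-null liver also carried tumors elsewhere, so that effects of genotype and of tumors cannot be told apart, and other diets were not analysed here. In the text below, values of single mice are given in the order 3003, 3007, 3008, against 1025, 1027, 1001, and each is a log2 signal of 1 probe set, so that levels are not compared between genes. A difference is MUTYH-null minus wild-type.

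Ribosomes are assembled in the nucleolus. RNA polymerase I transcribes the ribosomal RNA precursor, small nucleolar ribonucleoproteins (snoRNPs) modify it, and a long series of assembly factors folds and cuts it while ribosomal proteins join, until the small and the large subunit leave the nucleus. Many of these genes are known targets of MYC, a transcription factor of cell growth whose gene is a target of Wnt/β-catenin signaling, and nucleolar enlargement is a familiar feature of hepatocellular carcinoma. The question asked of these genes was whether they differed between the groups and whether they followed the level of Myc from mouse to mouse.

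The array medians lay between 4.51 and 4.55 log2, and Pearson's r between arrays was 0.982 to 0.985. All 41 genes had a mean above the median of all probe sets, 4.52 log2. The hepatocyte markers were high in every mouse, with a mean over 9 genes of 11.68, 11.80 and 11.74 log2 in MUTYH-null livers, against 11.70, 11.75 and 11.73 log2 in wild-type livers. The probe set of Mutyh averaged 4.47 ± 0.16 log2 in MUTYH-null mice and 4.42 ± 0.060 log2 in wild-type mice (SD, n = 3 each), which is below that median in both groups, so that it checks neither genotype label. The labels name 3 animals in each group, and their number limits the precision.

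The ribosome biogenesis genes differed little between the groups. No gene passed an adjusted p under 0.05 with limma, neither among the 41 nor among all 22180 genes, of which 1129 had an unadjusted p under 0.05. At that unadjusted level 1 of the 41 was higher in MUTYH-null liver, Ppan, and 1 was lower, Polr1e, where 2.29% of all genes were higher and 2.8% lower. These 2 are 4.88% of the 41 genes, and 5.09% of all genes were called in the same fit. A negative difference was found in 30 of the 41, or 73.2%, where 52.5% of all genes had one. The median difference was -0.060 log2 over the 41 genes and -0.0073 log2 over all genes. Differences ran from -0.31 to 0.35 log2, with quartiles at -0.11 and 0.022 log2. Without mouse 1001 the median was 0.0021 log2, and without mouse 3008 it was -0.0069 log2. The groups were fully separated in 5 of the 41 genes (12.2%, against 9.53% of all genes). All MUTYH-null values of Ppan lay above the wild-type values (4.23% of all genes), and those of Polr1e, Dkc1, Noc4l and Ltv1 lay below (5.29% of all genes). For each of these the exact two-sided permutation test gave p = 0.1, the smallest that 3 mice against 3 allow. Full separation fixes that value in advance, so the test adds nothing to the separation.

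**Figure D1:**
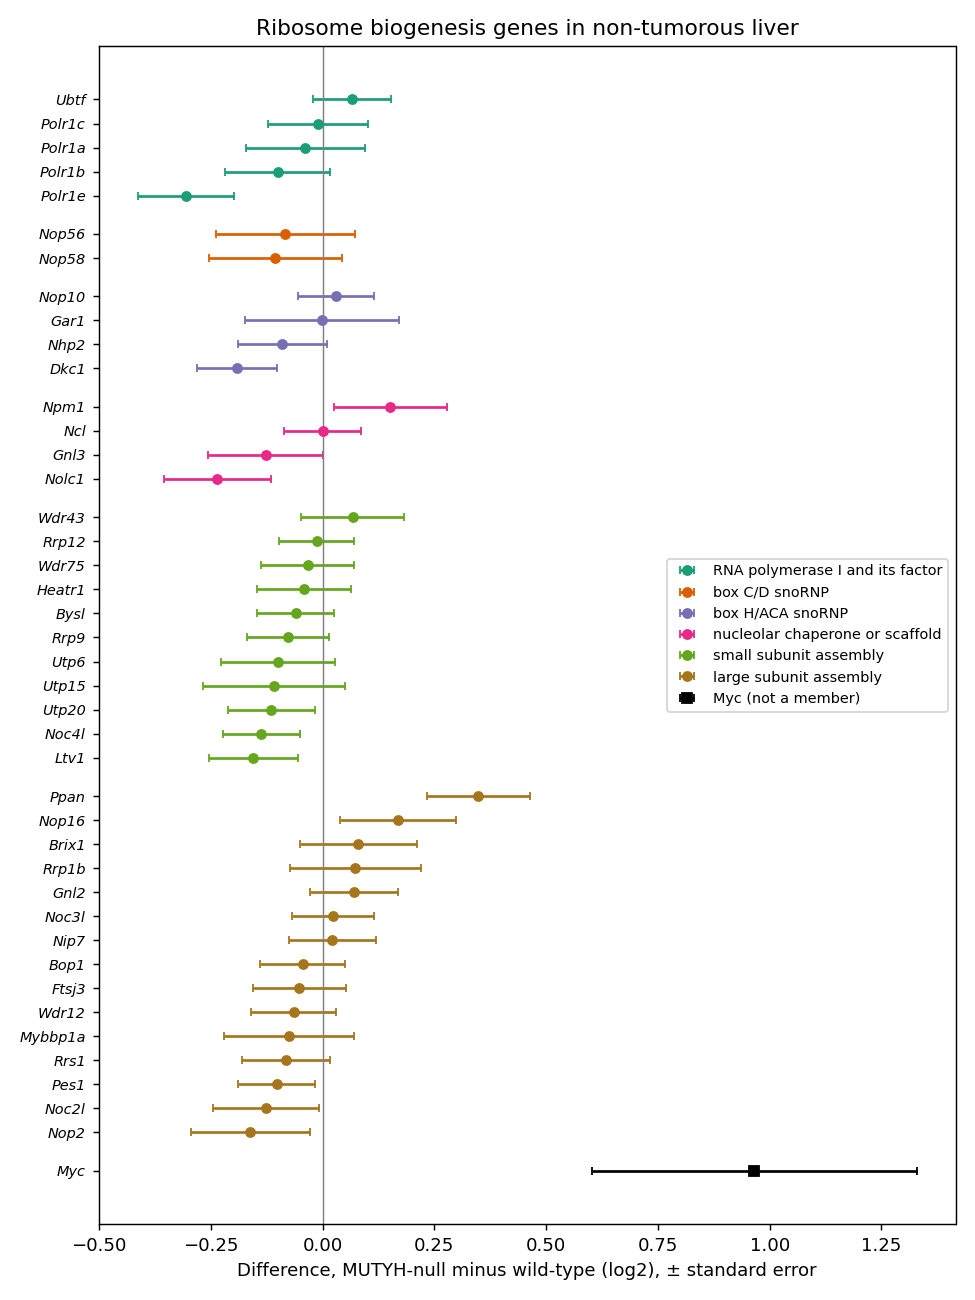
Difference between MUTYH-null and wild-type liver (log2, x axis) for each of the 41 ribosome biogenesis genes, grouped and coloured by role, and for Myc; bars are limma standard errors (n = 3 mice per group). The genes lie between -0.31 and 0.35 log2, and Myc lies at 0.97 log2.

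Myc was the measure to which the genes were related. Myc was 6.56, 6.75 and 7.90 log2 in the MUTYH-null mice, against 6.62, 5.67 and 6.02 log2 in the wild-type mice. Mouse 3008 stood highest and mouse 1027 lowest, and MUTYH-null mouse 3003 was just under wild-type mouse 1025, so that the groups overlapped. MUTYH-null minus wild-type gave 0.97 log2, standard error 0.36 (limma unadjusted p = 0.0287, adjusted p = 0.963, and exact permutation test, two-sided p = 0.2). It was 0.55 log2 without mouse 3008, 0.75 log2 without mouse 1027 and 0.92 log2 without mouse 1001, and in each of these 3 fits the unadjusted p was no longer under 0.05. Its 95% confidence interval was wide, from 0.13 to 1.80 log2. Among the 41 ribosome biogenesis genes the highest upper end of this interval was 0.61 log2, for Ppan. The median upper end was 0.20 log2, and most of these ranges overlapped the lower part of that of Myc. Those of Polr1e, Dkc1, Nolc1, Noc4l, Ltv1, Pes1 and Utp20 ended below it, from -0.058 log2 (Polr1e) to 0.11 log2 (Utp20).

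The mean over the 41 genes was 6.52, 6.58 and 6.45 log2 in the MUTYH-null mice, against 6.51, 6.52 and 6.65 log2 in the wild-type mice. The MUTYH-null mean was 6.52 ± 0.068 log2 and the wild-type mean 6.56 ± 0.081 log2 (SD, n = 3 each), a difference of -0.042 log2 (standard error 0.061). The difference was smaller than the spread between mice of one group, and without mouse 1001 it was 0.0045 log2. The mouse with the most Myc, 3008, had the lowest mean of all 6, and mouse 1001, with the second lowest Myc, had the highest. Over the 6 mice, Pearson's r between this mean and Myc was -0.58 and Spearman's rho was -0.43, given as a description without a test because the genes were chosen with results of these data known. With the 2 mice farthest from the median of Myc left out, 3008 and 1027, r was -0.73 over 4 mice. Without mouse 3008 alone it was -0.12, and without mouse 1027 alone -0.84. With the group means taken out of both measures r was -0.51, and -0.10 when mouse 3008 was left out as well. The 3 mice of a group are too few for a value within one group. The size of r thus depended on mice 3008 and 1027, in opposite directions, and leaving out any 1 mouse gave no positive r.

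**Figure D2:**
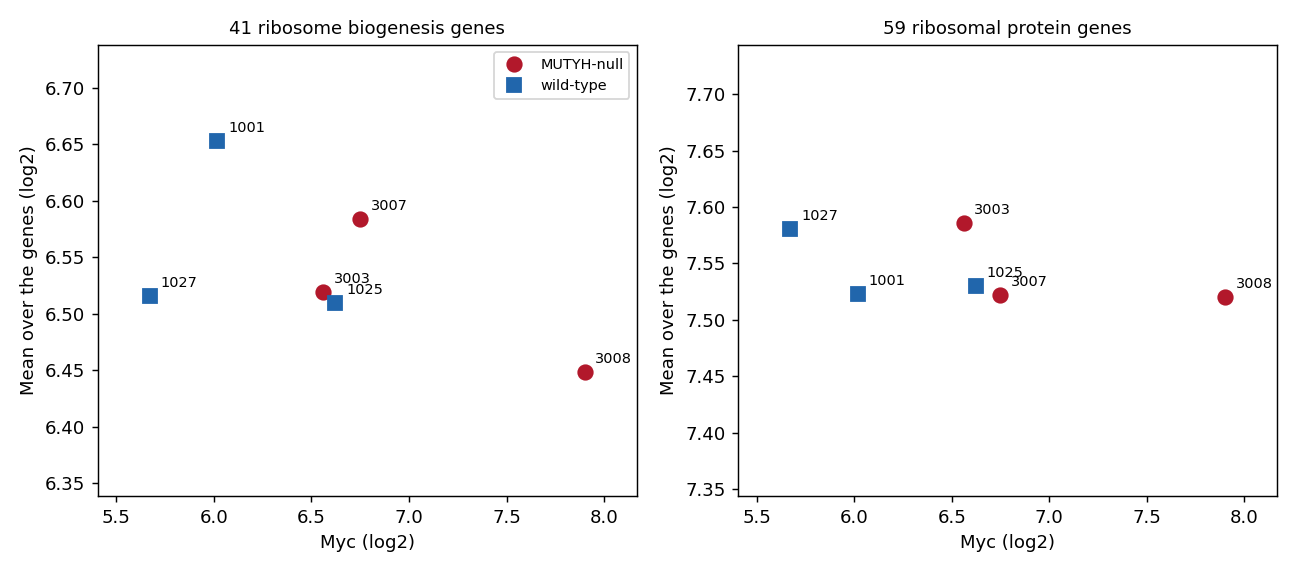
Mean log2 value over the 41 ribosome biogenesis genes (left) and over 59 ribosomal protein genes (right) on the y axis, against the log2 value of Myc on the x axis; each point is 1 mouse, circles MUTYH-null and squares wild-type. Mouse 3008, at 7.90 log2 of Myc, has the lowest mean at left, 6.45 log2; at right mice 3007, 3008 and 1001 all lie at 7.52 log2.

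Single genes showed the same picture. Pearson's r with Myc over the 6 mice was below 0 in 31 of the 41 genes, or 75.6%, where 50.1% of all genes had a value below 0. The median r was -0.31 over the 41 and -0.0013 over all genes, with the same 6 arrays behind every value. None of the 41 had an r above 0.8, which 2.63% of all genes had, and 1 had an r under -0.8, as did 2.42% of all genes. That gene was Noc4l, at -0.82, followed by Pes1 at -0.69 and Utp15 at -0.68. The highest values were 0.46 for Gnl2, 0.38 for Ppan and 0.22 for Bop1. Gnl2, a nucleolar GTPase of large subunit assembly, was 6.73, 6.82 and 6.94 log2 in the MUTYH-null mice, against 6.66, 6.81 and 6.82 log2 in the wild-type mice. It was the only one of the 41 with its highest value in mouse 3008, which 17.3% of all genes had.

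**Figure D3:**
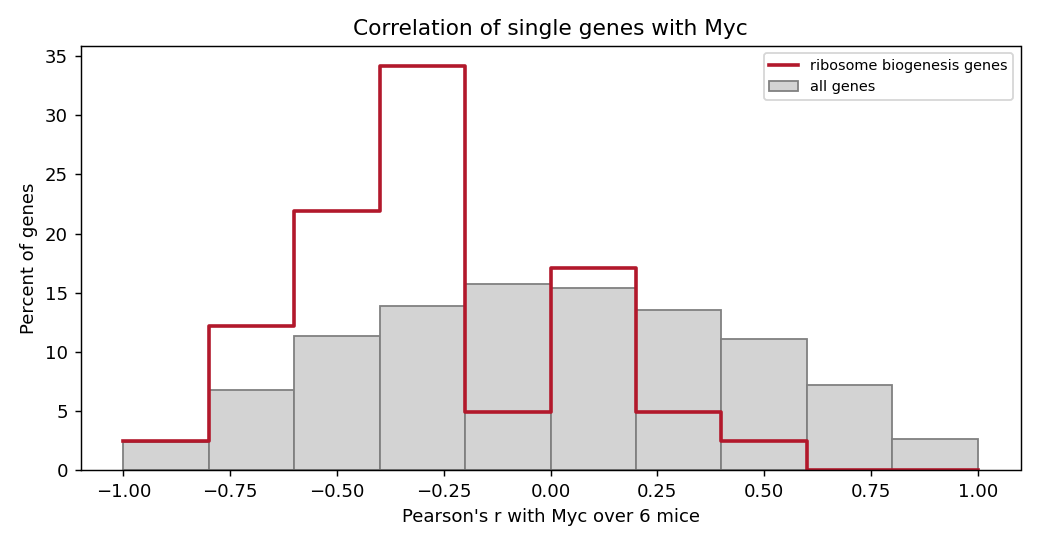
Distribution of Pearson's r between single genes and Myc over the 6 mice (x axis, bins of 0.2), as a percent of the 41 ribosome biogenesis genes (line) and of all 22180 genes (bars). The line is shifted to negative values, with a median of -0.31, against -0.0013 for the bars.

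The genes moved together more between individual mice than between groups. Mouse 1001 had the highest value of the 6 in 25 of the 41 genes (61%; 18.8% of all genes), and mouse 3008 the lowest in 15 (36.6%; 16.7% of all genes). The next most often lowest was wild-type mouse 1025, in 9 genes (22%; 15% of all genes). The mean r over the 820 pairs of the 41 genes was 0.26, and 0.27 with the group means removed, while the mean over all pairs of the 22180 genes was 0.0015. The 41 all had means above the median of all probe sets, and 9314 of the 22180 genes did not. The comparison was thus not made at a like signal level. Nop58 followed the mean of the other 40 most closely (r = 0.99), and Ppan ran most against it (r = -0.57).

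**Figure D4:**
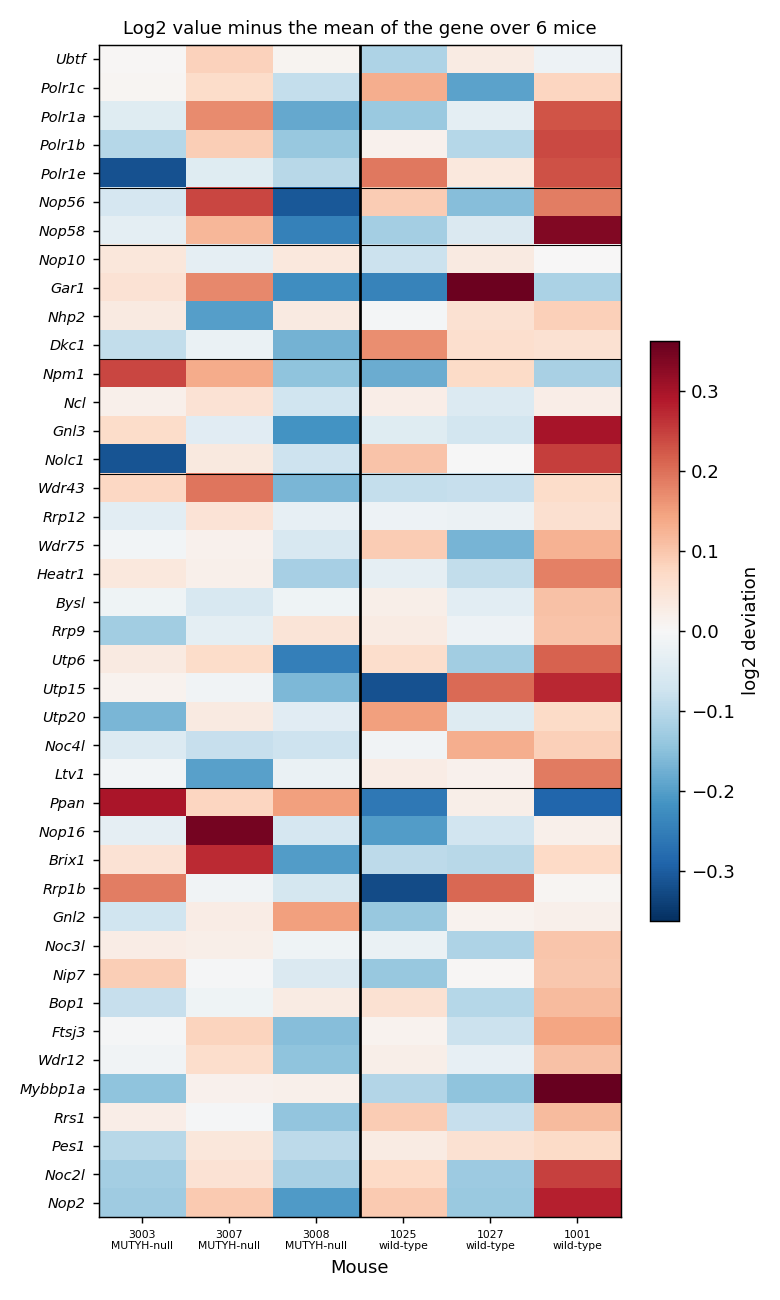
Log2 value of each of the 41 genes (rows, grouped by role) in each mouse (columns) as the deviation from the mean of that gene over the 6 mice, red above and blue below. The column of wild-type mouse 1001 is mostly red, with the highest value in 25 of 41 genes, and that of MUTYH-null mouse 3008 mostly blue, with the lowest in 15.

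Transcription of ribosomal RNA was represented by 5 genes, of which 1 was lower and none was higher. Polr1e encodes a subunit found in RNA polymerase I and not in the other nuclear RNA polymerases. It was 4.46, 4.73 and 4.68 log2 in the MUTYH-null mice, against 4.97, 4.81 and 5.01 log2 in the wild-type mice. Every MUTYH-null value was below every wild-type value, although the level was close to the median of all probe sets. The difference was -0.31 log2 (standard error 0.11; limma unadjusted p = 0.0215, adjusted p = 0.963), or 0.81-fold. Without mouse 3003, 1025 or 1001 the unadjusted p was 0.0764, 0.0588 or 0.0674. In the catalytic core genes the groups overlapped, and neither gene was called. Polr1a, for the largest subunit, had -0.039 log2 (standard error 0.13), and Polr1b, for the second largest, -0.10 log2 (standard error 0.12). Polr1c, whose product RNA polymerase III also contains, had -0.0097 log2, and Ubtf, for the factor UBF that opens ribosomal DNA for transcription, had 0.066 log2.

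The snoRNPs carry out the modification of ribosomal RNA, and none of their 6 measured genes was higher or lower at the unadjusted level. Dkc1 encodes dyskerin, the pseudouridine synthase of the box H/ACA particles. It was 6.09, 6.15 and 6.01 log2 in the MUTYH-null mice, against 6.35, 6.24 and 6.23 log2 in the wild-type mice. The groups did not overlap, with a difference of -0.19 log2 (standard error 0.089; 95% confidence interval -0.40 to 0.015 log2). Gar1, Nhp2 and Nop10 encode its partners in the same particle. Gar1 was 5.59, 5.71 and 5.31 log2 in the MUTYH-null mice, against 5.30, 5.89 and 5.42 log2 in the wild-type mice, the widest range of the 41 genes at 0.60 log2. Wild-type mice held both the highest value, in 1027, and the lowest, in 1025, and the difference was -0.0003 log2 (standard error 0.17). Nhp2 had -0.090 log2 and Nop10 had 0.031 log2. For the box C/D particles, which methylate ribosomal RNA, the core genes Nop56 and Nop58 had -0.083 log2 (standard error 0.16) and -0.11 log2 (standard error 0.15).

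Of the nucleolar chaperone and scaffold genes, none of 4 was higher or lower. Nolc1 encodes a phosphoprotein that binds snoRNPs. It was 6.58, 6.93 and 6.82 log2 in the MUTYH-null mice, against 7.00, 6.89 and 7.14 log2 in the wild-type mice, with a difference of -0.24 log2 (standard error 0.12). Mouse 3007 lay above mouse 1027, so the groups overlapped. Npm1, for nucleophosmin, an abundant histone and ribosome chaperone, was 8.11, 8.01 and 7.73 log2 in the MUTYH-null mice, against 7.69, 7.94 and 7.76 log2 in the wild-type mice. Mice 3003 and 3007 were above all wild-type mice and mouse 3008 was not, and a dimmer probe set of Npm1 had a difference of -0.17 log2, against 0.15 log2 on the one used. Ncl, for nucleolin, had a difference of -0.0001 log2 (standard error 0.086), and Gnl3, for the GTPase nucleostemin, -0.13 log2.

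**Figure D5:**
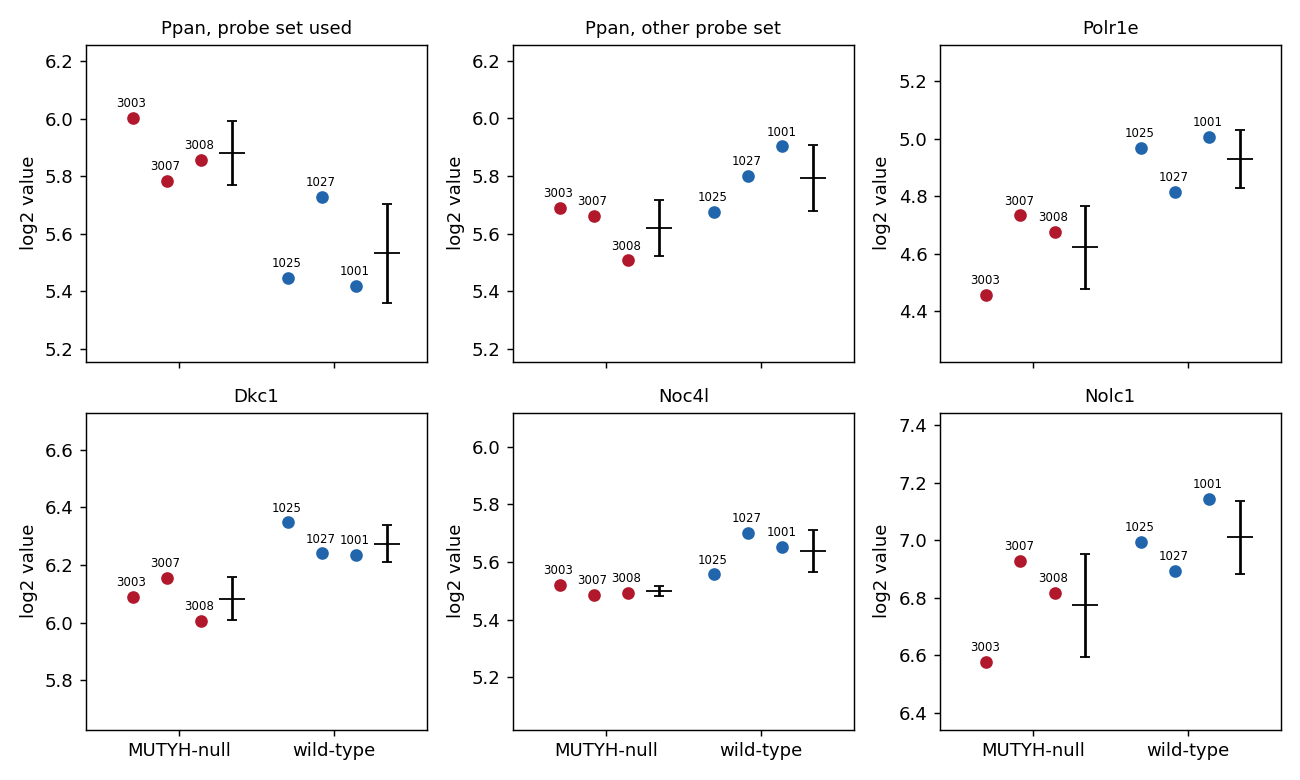
Log2 values of single mice (points, labelled by mouse) with the group mean and SD (n = 3) for both probe sets of Ppan and for Polr1e, Dkc1, Noc4l and Nolc1; MUTYH-null at left, wild-type at right, and every panel spans the same width on the y axis. The difference is 0.35 log2 on the Ppan probe set used and -0.17 log2 on the other.

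Small subunit assembly was covered by 11 genes, with none higher or lower, and 10 of them had a negative difference. The median was -0.077 log2, and the range was from -0.15 to 0.068 log2. Noc4l, whose yeast counterpart acts in the nucleolar export of small subunit precursors, was 5.52, 5.49 and 5.49 log2 in the MUTYH-null mice, against 5.56, 5.70 and 5.65 log2 in the wild-type mice. The MUTYH-null values lay close together and below every wild-type value, with a difference of -0.14 log2 (standard error 0.086). Ltv1, for a late factor of the same subunit, was 6.38, 6.19 and 6.37 log2 in the MUTYH-null mice, against 6.42, 6.41 and 6.58 log2 in the wild-type mice, also without overlap (difference -0.15 log2, standard error 0.099). Utp15, of the complex that couples transcription to processing, spread most within a group. It was 5.73, 5.70 and 5.55 log2 in the MUTYH-null mice, against 5.40, 5.92 and 5.99 log2 in the wild-type mice. Wild-type mice held both its lowest and its highest values, and the difference of -0.11 log2 became -0.29 log2 without mouse 1025 and 0.0006 log2 without mouse 1001. Heatr1 and Wdr75, of the same complex, had -0.041 and -0.034 log2, and Wdr43 had 0.068 log2. Utp20, a large scaffold protein gene, had -0.11 log2, Utp6 -0.10 log2, Rrp9 -0.077 log2, Bysl -0.060 log2 and Rrp12 -0.013 log2.

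Large subunit assembly had the most members, 15, with 1 higher and none lower. Its 7 positive and 8 negative differences had a median of -0.045 log2. Ppan encodes a protein of the Brix family that acts on large subunit precursors. It was 6.00, 5.78 and 5.86 log2 in the MUTYH-null mice, against 5.45, 5.73 and 5.42 log2 in the wild-type mice. Every MUTYH-null value was above every wild-type value, with a difference of 0.35 log2, or 1.27-fold (standard error 0.12; limma unadjusted p = 0.0163, adjusted p = 0.963). The unadjusted p was 0.0591 without mouse 3003, 0.0543 without mouse 1025 and 0.0571 without mouse 1001. A second probe set of Ppan pointed the other way. It was 5.69, 5.66 and 5.51 log2 in the MUTYH-null mice, against 5.68, 5.80 and 5.90 log2 in the wild-type mice, a difference of -0.17 log2. The 2 probe sets had means of 5.7063 and 5.7057 log2 over the 6 mice, so the one used was barely the brighter, and on the mean of both the difference was 0.087 log2 (limma unadjusted p = 0.391). The direction of Ppan is therefore not settled by these arrays.

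The next largest positive differences among large subunit genes had their highest value in mouse 3007. Nop16 was 6.72, 7.10 and 6.70 log2 in the MUTYH-null mice, against 6.55, 6.69 and 6.77 log2 in the wild-type mice, a difference of 0.17 log2 (standard error 0.13). Brix1, of the same family as Ppan, was 7.19, 7.41 and 6.94 log2 in the MUTYH-null mice, against 7.05, 7.04 and 7.22 log2 in the wild-type mice. Its difference of 0.080 log2 became -0.035 log2 without mouse 3007. Nop2, for a methyltransferase of the large ribosomal RNA, was at the other end. It was 6.94, 7.17 and 6.87 log2 in the MUTYH-null mice, against 7.17, 6.94 and 7.36 log2 in the wild-type mice, a difference of -0.16 log2 (standard error 0.13). The groups overlapped, with mouse 3007 level with mouse 1025 and mouse 1027 just below mouse 3003.

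Pes1, Bop1 and Wdr12 form the PeBoW complex, which is needed for processing of the large subunit RNA. Pes1 was 7.01, 7.15 and 7.01 log2 in the MUTYH-null mice, against 7.14, 7.16 and 7.17 log2 in the wild-type mice, a difference of -0.10 log2 (standard error 0.087). Bop1 was 6.63, 6.70 and 6.74 log2 in the MUTYH-null mice, against 6.77, 6.61 and 6.83 log2 in the wild-type mice, a difference of -0.045 log2 (standard error 0.095), and Wdr12 had -0.064 log2 (standard error 0.095). All 3 intervals of the complex included 0. The remaining members, Noc2l, Rrs1, Mybbp1a, Ftsj3, Nip7, Noc3l and Rrp1b, lay between -0.13 log2 (Noc2l) and 0.073 log2 (Rrp1b).

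The canonical E-box CACGTG, which MYC binds together with MAX, was looked for in promoter windows running from 250 bases before to 50 after the annotated start (RefSeq, GRCm38.p6). The letters read the same on both strands. Of the 35 members with a promoter in the table, 6 held a match (17.1%), where 8.09% of all genes in the table and 9.19% of the genes measured on the array did. Among the other assembly factors it was 21.2% for the small and 21.6% for the large subunit, and 10.3% for ribosomal protein genes. The matches are shown because the question concerned Myc and these are the members whose promoters hold its motif. Each line gives the stretch around 1 match, 5′ to 3′ on the strand of the gene, with the E-box in capitals; Mybbp1a and Utp20 are cut short by the end of the window.
Pes1, chr11:3963965-3963994, + strand: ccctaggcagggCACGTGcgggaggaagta
Wdr43, chr17:71616220-71616249, + strand: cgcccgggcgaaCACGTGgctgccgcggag
Nop2, chr6:125131811-125131840, + strand: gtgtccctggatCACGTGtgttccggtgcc
Ltv1, chr10:13193092-13193121, - strand: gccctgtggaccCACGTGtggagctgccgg
Utp20, chr10:88826765-88826789, - strand: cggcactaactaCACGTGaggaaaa
Mybbp1a, chr11:72441355-72441376, + strand: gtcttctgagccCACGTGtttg
In Nop2 the match began at -60 relative to the start, and in the other 5 it lay just behind it, from 2 bases in Pes1 to 40 bases in Mybbp1a. The 6 genes with the E-box had a median difference of -0.11 log2 and a median r with Myc of -0.35, and 5 of them had a negative difference. The 29 without it had a median difference of -0.052 log2 and a median r of -0.37, and 21 had a negative difference. Neither Ppan nor Polr1e had a match. A match is a description of the letters and not evidence of binding in these livers.

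In the rest of the ribosome assembly pathway single genes were called, and the medians of its lists varied. Of all genes, 2.29% were higher and 2.8% lower at the same unadjusted level. Of 38 other small subunit factors, 1 was lower, Pwp2, a processome scaffold gene (-0.27 log2, standard error 0.10), and none was higher, with 18 positive and 20 negative differences and a median of -0.0058 log2, near that of all genes. Of 39 other large subunit factors, Rrp15 was lower (-0.28 log2, standard error 0.097) and none was higher, with 12 positive and 27 negative differences and a median of -0.041 log2. None of 10 other RNA polymerase I genes was higher or lower, and their median was 0.027 log2. In both lists of assembly factors mouse 1001 was most often highest, in 19 of the 38 and 23 of the 39 genes (18.8% of all genes). Mouse 3008 was lowest in 12 and 18 (16.7% of all genes). Mouse 1027, with the least Myc, was lowest in 11 and 11, where it was lowest in 3244 of all 22180 genes. The list means were 6.43 and 6.39 log2 in mouse 3008, against 6.44 and 6.42 log2 in mouse 1027. Ribosomal protein genes, the structural parts of the ribosome, did not share the peak in mouse 1001. Their mean over 59 measured genes was 7.59, 7.52 and 7.52 log2 in the MUTYH-null mice, against 7.53, 7.58 and 7.52 log2 in the wild-type mice. In this list Rpl17 was higher (0.31 log2) and Rpl37 (-0.33 log2) and Rpl11 (-0.25 log2) were lower, and the median was 0.0096 log2. These called genes lay far below the mean of the list. Rpl17 ran from 4.67 to 5.24 log2, Rpl37 from 4.34 to 4.98 log2 and Rpl11 from 4.18 to 4.59 log2. In all, 9 of the 59 genes had means no higher than the median of all probe sets, 4.52 log2. Mouse 3003 was highest in 23 of the 59 and mouse 1001 in 5. Mouse 3008 was again the lowest in 21. Counts in all these lists are at an unadjusted p under 0.05, as above, and no gene in them passed after adjustment over all genes.

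MYC binds the E-box together with its partner MAX, and the other genes of the Myc and Max network showed no shift of the size of Myc. Max had 0.072 log2 (standard error 0.087), and of the 12 genes of this network only Myc was called. Of 21 known MYC targets outside ribosome assembly, Tfb2m, for a mitochondrial transcription factor, was higher by 0.27 log2 (standard error 0.084) and none was lower, with a median of 0.0044 log2. The means over the lists of lymphoid cell markers were highest, like Myc, in mouse 3008, while single markers varied. Of 9 markers of antibody-secreting plasma cells, 1 was higher (Prdm1) and 1 was lower (Sdc1). In mouse 3008, 6 of the 9 were highest and Sdc1 was lowest, at 6.16 log2. Their mean was 5.61, 5.76 and 6.40 log2 in the MUTYH-null mice, against 5.54, 5.59 and 5.47 log2 in the wild-type mice. Jchain was 7.47 log2 in mouse 3008 and at most 5.32 log2 in the others, while Tnfrsf17 and Irf4 had means below the median of all probe sets. The mean of 5 B cell markers was 5.13 log2 in mouse 3008 and 4.43 to 4.64 log2 in the other mice, and that of 7 T cell markers was 4.82 log2 in mouse 3008 and 4.41 to 4.68 log2 in the others. Only 3 of the 5 B cell and 3 of the 7 T cell markers were highest in mouse 3008. In each list 2 markers had means below the median of all probe sets. The part of these cells in the low ribosome biogenesis values of that mouse was not tested, and in a bulk tissue fewer cells of a type and less RNA per cell cannot be told apart. Markers of cycling cells, which raise ribosome production, averaged 4.57, 4.41 and 4.45 log2 in the MUTYH-null mice, against 4.67, 4.49 and 4.54 log2 in the wild-type mice. Of 7 measured, Plk1 was lower (-0.33 log2) and none was higher, and 3 lay below the median of all probe sets. Of the other cell types looked at, macrophage markers had 2 of 9 lower, Marco (-0.38 log2) and Timd4 (-0.64 log2, with a mean below the median of all probe sets). The macrophage list had 4 positive and 5 negative differences, with a median of -0.011 log2. Endothelial markers had 1 of 6 higher, Lyve1 (0.46 log2), with 3 positive and 3 negative differences. Of all genes, 2.8% were lower and 2.29% higher at that level. None of the T cell, B cell, stellate cell or cholangiocyte markers was called. The mean of 5 cholangiocyte markers was above every wild-type mouse in every MUTYH-null mouse, as was the plasma cell mean given above. The cholangiocyte mean was 4.82, 4.80 and 4.74 log2 in the MUTYH-null mice, against 4.66, 4.66 and 4.64 log2 in the wild-type mice (difference 0.13 log2, standard error 0.024). Of these cholangiocyte markers 4 of 5 had a positive difference, from 0.037 log2 in Sox9 to 0.32 log2 in Cftr, and Krt19 had -0.015 log2. Only Krt7 (0.24 log2) separated the groups by itself. Krt19, Epcam and Cftr had means below the median of all probe sets. The part of these cells in the differences of the ribosome biogenesis genes was not tested.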

How the data were processed

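Total RNA was hybridized to Affymetrix whole-transcript arrays, 1 per mouse. The deposited values are log2 signals that the authors summarized and normalized by RMA. Affymetrix Expression Console and the Transcriptome Analysis Console appear in the submitters' processing notes. A human array is named in the methods, but the annotation of the probe sets is for mouse genes. RMA equalizes the arrays, so that a change shared by most genes would not be seen.

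Of 41345 probe sets, 23521 named 1 gene, 1820 several and 16004 none. For each of 22180 genes the probe set with the highest mean was kept, and no filter on dim signals was applied. Names were updated by Entrez ID for 21994 genes. The groups were compared with limma 3.58.1 in R 4.3.3 (lmFit, eBayes, no covariate), with Benjamini-Hochberg adjustment over all genes. The code was tested on simulated data. A gene was called at an unadjusted p under 0.05. The exact permutation test was run on single genes.

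The members, lists and tests were chosen with earlier results of these data known. All 6 values are given for the called members, the 4 with the largest difference in each direction, the 3 with the highest and the 3 with the lowest r with Myc, the 3 with the widest range, and Myc. Ltv1 and the second probe set of Ppan were added after their values were seen. Of other lists, called genes are named, at most 4. The alternatives were a filter on dim genes, a second quantile normalization, centering of arrays, the mean of probe sets, a robust variance trend, array weights, other summaries over members, and each mouse left out. Histology and quantitative PCR were not used here.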

Additional observations from a re-analysis of the deposited data

How the results depend on the processing

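The count of members at an unadjusted p under 0.05 was 2 and became 1 on the mean of probe sets. With each mouse left out it ranged from 0, without mouse 3003 or mouse 1001, to 3, without mouse 3007, and it was 1 without mouse 1025, where the gene was Utp15. It was 3 without dim genes, with a second quantile normalization and with a robust variance trend, each time with Dkc1 added. None passed an adjusted p under 0.05 under any of the 12 alternatives. The median difference lay between -0.10 and 0.0021 log2 with each mouse left out, and between -0.068 and -0.045 log2 otherwise. The difference of the mean over members ranged from -0.076 to 0.0045 log2 with each mouse left out, and r with Myc from -0.84 to -0.12. With the other summaries and normalizations r ran from -0.62, on the mean of probe sets, to -0.38, on the median over members. Spearman's rho ranged from -0.54 to -0.20 across these, and it was 0 without mouse 3008. For Myc, the difference ranged from 0.55 to 1.22 log2 with each mouse left out, and the exact permutation test on 0.97 log2 cannot pass with 3 mice per group. Of the 14 members named by the rule, 9 kept their direction throughout, and Ltv1 was not run. The sign of Npm1 turned on the mean of probe sets (-0.0074 log2), and that of Gar1 with array weights (0.0088 log2). With each mouse left out, Gar1 ranged from -0.12 to 0.18 log2 (above 0 without mouse 3008 or 1027), Brix1 from -0.035 log2, without mouse 3007, to 0.20 log2, Bop1 from -0.11 to 0.0021 log2 and Utp15 from -0.29 to 0.0006 log2, both above 0 only without mouse 1001. No paired analysis was possible because the animal numbers of the groups are not shared.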

Other observations

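The RNA exosome trims the ends of ribosomal RNA precursors. All 11 of its measured genes had a negative difference, as did 52.5% of all genes. The median was -0.065 log2, the range was from -0.15 to -0.0073 log2, and none was higher or lower at an unadjusted p under 0.05. Their mean was 6.46, 6.47 and 6.37 log2 in the MUTYH-null mice, against 6.52, 6.44 and 6.58 log2 in the wild-type mice. The groups overlapped, with a difference of -0.077 log2 (standard error 0.051). Mouse 3008 had the lowest value in 6 of the 11 genes (16.7% of all genes) and mouse 1001 the highest in 6 (18.8% of all genes). RNA polymerase III makes transfer RNA and the smallest ribosomal RNA. Of its 17 measured genes, Polr3d (-0.43 log2, standard error 0.16) and Polr3g (-0.30 log2, standard error 0.11) were lower and none was higher, at a limma adjusted p of 0.963 each. At a limma unadjusted p under 0.05, 2.8% of all genes were lower and 2.29% higher. The list had 8 positive and 9 negative differences with a median of -0.055 log2. Polr3d was 5.20, 5.63 and 5.19 log2 in the MUTYH-null mice, against 5.63, 5.65 and 6.01 log2 in the wild-type mice. The largest value, in mouse 1001, again belonged to a wild-type animal.

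Besides Ppan and Npm1, the probe sets of Nop56 and Rrs1 pointed in different directions. For Nop56 the one used had a difference of -0.083 log2, and 2 dimmer ones had 0.26 and 0.24 log2. Rrs1 had -0.083 log2 on the probe set used and 0.036 log2 on another.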
